A study of Mus musculus with 6 samples.

Results

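The FGF and ERK feedback genes considered here were Dusp4, Dusp5, Dusp6, Spry1, Spry2, Spry4, Spred1, Spred2, Etv4 and Etv5. They were chosen by name, as targets and inhibitors of fibroblast growth factor (FGF) signalling, and make up 10 of the 18193 genes that the arrays measured. All 28 probe sets that the platform annotation assigned to one of these symbols alone were kept. A probe set is a group of array probes summarised as 1 signal, a linear intensity with no absolute unit.

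The klotho-deficient mice were homozygous for a mutant klotho allele and the wild-type mice homozygous for the normal one, both on an albino C57BL/6J background and both 6 to 6.5 weeks old. Each array carried RNA pooled from the dissected aortic roots of 3 mice, for 3 arrays and 9 mice of each genotype. The root included the leaflets of the valve, the annulus and some of the ascending aorta, so every signal is an average over many cell types. The labels do not say which klotho mutation was used, or whether littermates were compared, and p-values measure the spread between pools.

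When an FGF binds its receptor, the small GTPase Ras activates the kinases Raf, MEK and ERK in turn. ERK then induces the genes that restrain it: Sprouty proteins block the path from receptor to Ras, Spred proteins bring the Ras inhibitor neurofibromin to the membrane, and dual-specificity phosphatases (Dusp) remove the activating phosphates from ERK. Etv4 and Etv5 are ETS transcription factors of the PEA3 group that ERK activity induces, and are widely read as markers of FGF signalling in developing tissues. Klotho is the co-receptor that lets FGF receptors respond to the hormone FGF23, chiefly in kidney and parathyroid.

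Promoters of 7 of the 10 genes were taken from a RefSeq table of build GRCm38.p6, as 8 windows of 300 bases. Each window runs from 250 bases before a transcription start to 50 after it. No window of Dusp4, Spry4 or Etv4 was searched. The search left out member windows on the chromosome of Spry4, while the shares of all windows include that chromosome. The absence of Dusp4, Spry4 and Etv4 does not show that the RefSeq table lacks them, and the motif counts do not cover these genes. The windows were searched on both strands for 4 motifs. The first was the octamer bound by Capicua, a repressor that ERK inactivates, in the spellings TGAATGAA, TGAATGGA, TCAATGAA and TCAATGGA. The second was the 6-base core TGAATG, which the first 2 of those spellings contain. The others were the ETS factor motif CCGGAA and the CArG box of serum response factor, a factor that acts at ERK-induced genes. Shown here are the 4 windows with a match, because they show which of these ERK-linked motifs the promoters hold. Capitals mark the matches.
Dusp6: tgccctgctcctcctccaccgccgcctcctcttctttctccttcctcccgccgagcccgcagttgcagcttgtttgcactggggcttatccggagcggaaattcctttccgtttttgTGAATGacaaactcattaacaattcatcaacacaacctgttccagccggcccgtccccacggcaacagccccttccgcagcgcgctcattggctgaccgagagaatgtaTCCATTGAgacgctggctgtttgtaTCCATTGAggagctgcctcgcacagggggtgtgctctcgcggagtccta
Spry2: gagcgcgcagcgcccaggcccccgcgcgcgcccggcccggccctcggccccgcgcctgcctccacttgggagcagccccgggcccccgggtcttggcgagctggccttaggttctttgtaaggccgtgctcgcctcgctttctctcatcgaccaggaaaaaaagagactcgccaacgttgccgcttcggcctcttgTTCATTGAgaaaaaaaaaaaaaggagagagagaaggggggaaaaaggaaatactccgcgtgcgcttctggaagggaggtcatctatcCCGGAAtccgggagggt
Etv5: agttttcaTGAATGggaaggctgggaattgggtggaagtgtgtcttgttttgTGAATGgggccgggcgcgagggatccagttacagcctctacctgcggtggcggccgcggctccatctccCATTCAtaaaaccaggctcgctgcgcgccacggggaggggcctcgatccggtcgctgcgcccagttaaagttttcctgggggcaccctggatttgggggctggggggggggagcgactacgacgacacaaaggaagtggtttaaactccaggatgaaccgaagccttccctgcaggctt
Dusp5: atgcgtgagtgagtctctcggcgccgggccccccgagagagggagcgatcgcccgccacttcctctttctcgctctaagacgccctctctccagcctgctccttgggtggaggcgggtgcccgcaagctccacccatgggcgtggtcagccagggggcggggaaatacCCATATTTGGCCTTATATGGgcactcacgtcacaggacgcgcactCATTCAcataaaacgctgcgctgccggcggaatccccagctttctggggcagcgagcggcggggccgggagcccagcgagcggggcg

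The Dusp6 window (chr10:99262981-99263280, plus strand) held the Capicua octamer in 2 places, with first bases at -24 and 2 from the start, and the core once at -133. The Spry2 window (chr14:105896770-105897069, minus strand) held the octamer once at -54 and the ETS motif once at 34. The Etv5 window (chr16:22438319-22438618, minus strand), which belongs to the downstream of its 2 annotated starts, held the core in 3 places at -242, -198 and -129. The Dusp5 window (chr19:53528895-53529194, plus strand) held 2 abutting CArG boxes, at -82 and -72, and the core once at -37.

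The octamer was present in 2 of the 8 windows, against 3.84% of all 32851 windows in the table. The core was present in 3 of 8 (12.7% of all), the ETS motif in 1 of 8 (14.9%) and the CArG box in 1 of 8 (1.63%). Windows of Spry1, Spred1, Spred2 and the upstream Etv5 start held none of the 4 motifs. The member windows were 57.0% to 74.0% G and C, against a median of 52.7% for all windows. These matches are descriptions of sequence and not binding sites.

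Some arrays stood apart. Y-linked Kdm5d read 2516.3, 16.1 and 5.8 on the klotho-deficient arrays, against 2745.5, 3267.9 and 2512.1 in wild type, so that replicates 2 and 3 of the klotho-deficient pools lacked Y-linked signal, while Xist was detected on all 6 arrays. Gapdh control probes, whose 3' signal exceeds the 5' signal more as RNA degrades, had a ratio of 3.23 to 4.08 on 5 arrays and 7.18 on the third wild-type array. Actb control probes did not set that wild-type array apart, with a ratio of 1.10 there and 1.07 to 1.18 on the other 5 arrays. Klotho-deficient replicate 3 had the lowest median signal, at 425.6 against 451.9 to 556.6 on the other 5 arrays. Its highest signal was also the lowest of its kind, at 75199.9 against 98097.4 to 131885. Between 69.0% and 75.4% of probe sets per array were above the highest Bacillus control (161.8, from probes that match no mouse transcript). Markers of smooth muscle and of valve interstitial cells and fibroblasts, the labelled tissue, had mean signals above that control in 8 of 8 and 10 of 10 cases. Kl itself was near that level in both genotypes, at 138.3, 217.4 and 189.1 in klotho-deficient roots against 166.7, 184.7 and 202.1 in wild type, and does not check the labels, since its probes were not placed against the mutated site.

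None of the 10 feedback genes separated the genotypes by the test. All 10 had a mean signal above the highest Bacillus control. In RNA from whole roots, fewer cells of a type and less RNA per cell cannot be told apart. In limma, with Benjamini-Hochberg adjustment over all 18193 genes, 0 of 10 passed the threshold of 0.05, where 0% of all genes did, and the smallest adjusted p was 0.796 for Dusp4. At an unadjusted p under 0.05 there were also 0 of 10, against 6.41% of all genes. The log2 difference, klotho-deficient minus wild type, was positive for 7 genes and negative for 3, with a median of 0.19 against 0.0030 for all genes, 50.4% of which were positive. On 1 klotho-deficient pool, replicate 3, 9 of the 10 had their highest signal of the 6 arrays, against 20.6% of all genes. After quantile normalization, an alternative added after the data were seen, it was 7 of 10, against 26.1%. These shares of all genes are not matched on signal level, and that array had the lowest median signal.

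**Figure D1:**
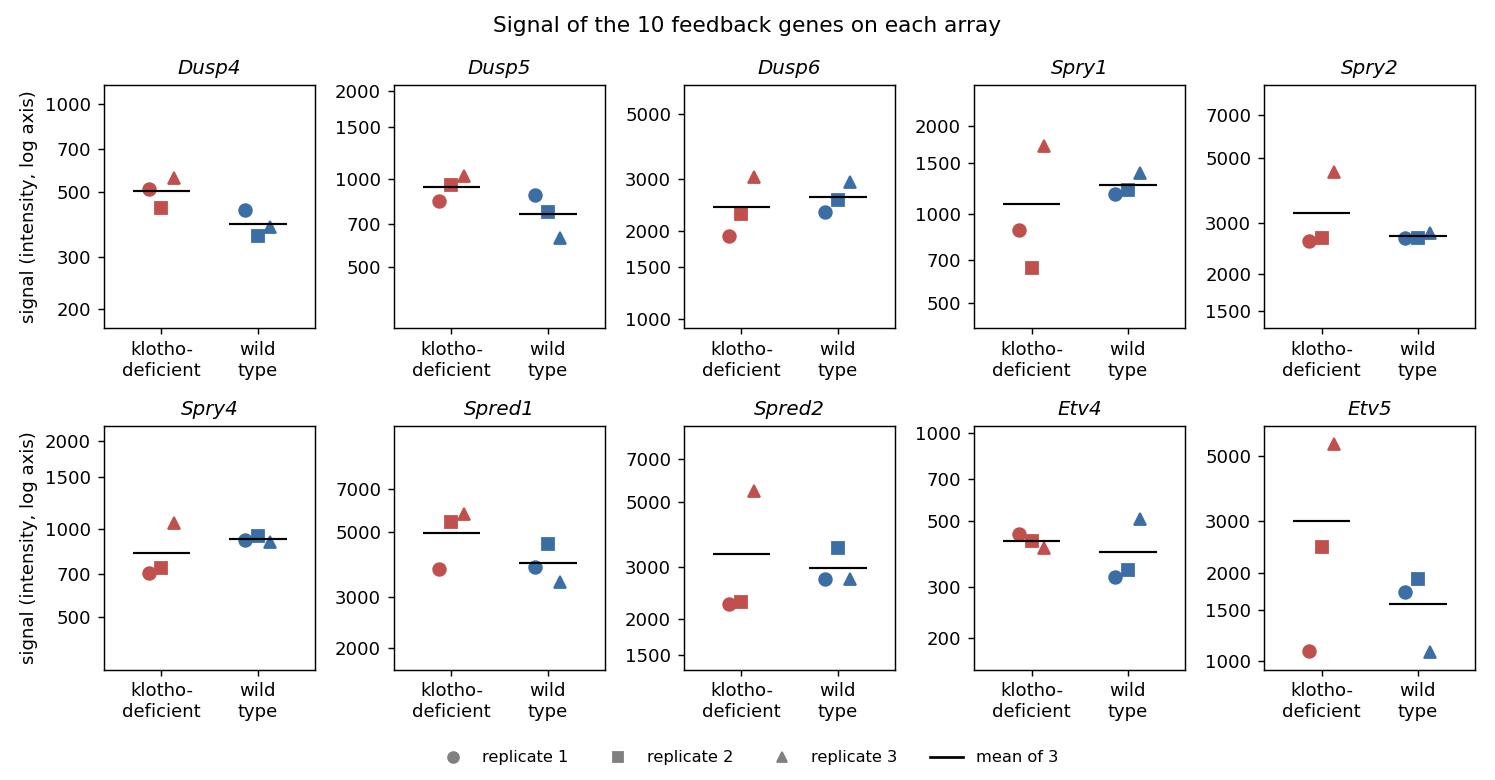
Signal of each feedback gene (brightest probe set) on each array, klotho-deficient left and wild type right, with the symbol giving the replicate and the line the mean of 3. Each panel has its own log axis with the same fold span. The klotho-deficient triangle, replicate 3, is the top point in every panel except Etv4.

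Etv5 had the widest spread of the members. Its brightest probe set, 1428142_at, gave 1080.3, 2443.5 and 5496.9 on klotho-deficient replicates 1, 2 and 3, against 1723.3, 1902.2 and 1077.5 on the wild-type arrays. The klotho-deficient arrays spanned 5.09-fold, with replicate 1 next to the lowest wild-type array and replicates 2 and 3 above all of them, so the genotypes overlapped. The means were 3007 ± 2262 in klotho-deficient and 1568 ± 434 in wild-type pools (SD, n = 3 each), a log2 difference of 0.68 ± 0.61 (SE; 95% interval -0.80 to 2.16; limma adjusted p = 0.866). Of all genes, 8.59% varied more among the klotho-deficient arrays on the log2 scale, while 30.4% varied more among the wild-type arrays. Without klotho-deficient replicate 3 the difference was 0.093, and without replicate 1 it was 1.27 (limma adjusted p = 0.810).

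The other Etv5 probe sets followed the same order of klotho-deficient arrays. Probe set 1450082_s_at gave 850.9, 1293.5 and 3331.8 on these arrays, against 1169, 1415 and 970.9 in wild type. Probe set 1420998_at gave 244.2, 358.5 and 488.6 in klotho-deficient pools, against 179.9, 133.1 and 256.3 in wild-type pools. It was below the highest Bacillus control on wild-type replicate 2, so that its fold is uncertain. It had a difference of 0.93 ± 0.37 and was the 1 of 28 probe sets at an unadjusted p under 0.05 (5.36% of all 45037 probe sets were), with an adjusted p of 0.918 in limma over all probe sets.

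Etv4, the close relative of Etv5, did not share this pattern. Its brightest probe set, 1423232_at, gave 452.1, 427.6 and 405.4 on the klotho-deficient arrays, against 323.6, 342.4 and 510.1 on the wild-type arrays. The klotho-deficient arrays lay inside the wild-type range, whose top was wild-type replicate 3. The difference was 0.16 ± 0.23 (adjusted p = 0.920 in limma). Its other probe set, 1443381_at, was below the highest Bacillus control on all 6 arrays and has no usable fold.

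The Sprouty genes, inhibitors upstream of Ras, varied more among the klotho-deficient arrays than among the wild-type arrays in their brightest probe sets. Of all genes, 19.9% varied more than Spry1, 37.5% more than Spry2 and 53.8% more than Spry4 among the klotho-deficient arrays. Spry1 (1415874_at) gave 881.2, 657.4 and 1714.3 on the klotho-deficient arrays, against 1175.1, 1211.6 and 1385.7 in wild type. Klotho-deficient replicates 1 and 2 were below all wild-type arrays and replicate 3 above them. The means of 1084 ± 557 in klotho-deficient and 1257 ± 113 in wild-type pools (SD, n = 3 each) gave a difference of -0.33 ± 0.37 (adjusted p = 0.893 in limma). Without klotho-deficient replicate 3 the Spry1 difference was -0.72 ± 0.22 and the only member value at an unadjusted p under 0.05 in that fit (0.0216, adjusted p = 0.565; 8.07% of all genes were under 0.05).

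Spry2 (1436584_at) gave 2591.7, 2664.5 and 4460.3 on the klotho-deficient arrays, against 2660.4, 2653.2 and 2766.8 in wild type. The wild-type arrays lay within 1.04-fold of each other, and 98.4% of all genes varied more among them. Klotho-deficient replicates 1 and 2 were close to the wild-type values and replicate 3 stood above all of them. The difference was 0.22 ± 0.26 (adjusted p = 0.898 in limma), and -0.035 without replicate 3. The dimmer Spry2 probe set, 1421656_at, read 351.6, 538.5 and 532.5 in klotho-deficient pools, against 437.2, 385.9 and 446.1 in wild-type pools, with both replicates 2 and 3 above wild type.

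Spry4 (1440867_at) gave 707.9, 735.7 and 1047.6 on the klotho-deficient arrays, against 918.1, 945.9 and 902.3 in wild type. As for Spry1, klotho-deficient replicates 1 and 2 were below all wild-type arrays and replicate 3 was above them. The difference was -0.17 ± 0.21 (adjusted p = 0.901 in limma). A further probe set, 1445669_at, showed the low replicate 1 and high replicate 3 more widely, at 433.2, 892.2 and 1265.1 in klotho-deficient pools, against 752.1, 930.1 and 924.9 in wild-type pools. The dimmest, 1422020_at, had a difference of 1.53 ± 0.70 but was above the highest Bacillus control on 2 of 6 arrays only, so that its fold is unstable, and 1422021_at gave 0.12. These probe sets spanned 41.1 to 202.8 and 224.5 to 343.4 among the wild-type arrays. The mean of all 4 probe sets was 0.33, opposite in sign to the brightest.

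The Spred genes ranked the arrays differently. Spred2 (1434403_at) gave 2239.3, 2288.4 and 5438.5 on the klotho-deficient arrays against 2736.4, 3490.8 and 2724.8 in wild type. Replicate 3 was 1.26 higher on the log2 scale than the mean of the other klotho-deficient arrays, which were below every wild-type array. The difference between genotypes was 0.033 ± 0.39 (adjusted p = 0.993 in limma), and -0.39 without replicate 3.

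Spred1 (1423161_s_at) gave 3718.8, 5392.5 and 5736.9 on the klotho-deficient arrays, against 3789.2, 4532.1 and 3371.9 in wild type. Replicates 2 and 3 were above every wild-type array and replicate 1 was inside their range. The difference was 0.33 ± 0.24 (95% interval -0.26 to 0.92; adjusted p = 0.841 in limma). Without klotho-deficient replicate 1 it was 0.52 ± 0.23. Of the 8 Spred1 probe sets, 7 had a positive difference, from 0.074 for the dim 1443652_x_at to 0.41 for 1423162_s_at, and 1 a negative one (1445228_at, -0.035).

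Some Spred probe sets were not highest on klotho-deficient replicate 3. Spred1 1445228_at read 1334.1, 1874.4 and 776.2 on the klotho-deficient arrays, against 1344.2, 1385.9 and 1120.2 in wild type. Spred2 1441415_at read 385.8, 385.5 and 179.5 in klotho-deficient pools, against 309.9, 285.7 and 261.5 in wild-type pools. In both, klotho-deficient replicate 3 was the lowest of the 6 arrays. Spred2 1441802_at read 416.8, 545.3 and 391.4 in klotho-deficient pools, against 494.3, 421.9 and 295 in wild-type pools, with replicate 3 the lowest klotho-deficient array. Of the 5 Spred2 probe sets, 2 were highest on klotho-deficient replicate 3. Over all 28 member probe sets that array was the highest for 21 (16.8% of all probe sets) and the lowest for 1445228_at and 1441415_at, which makes 2 (26.2% of all probe sets). Which transcripts of these genes the probe sets detect is not known here.

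**Figure D2:**
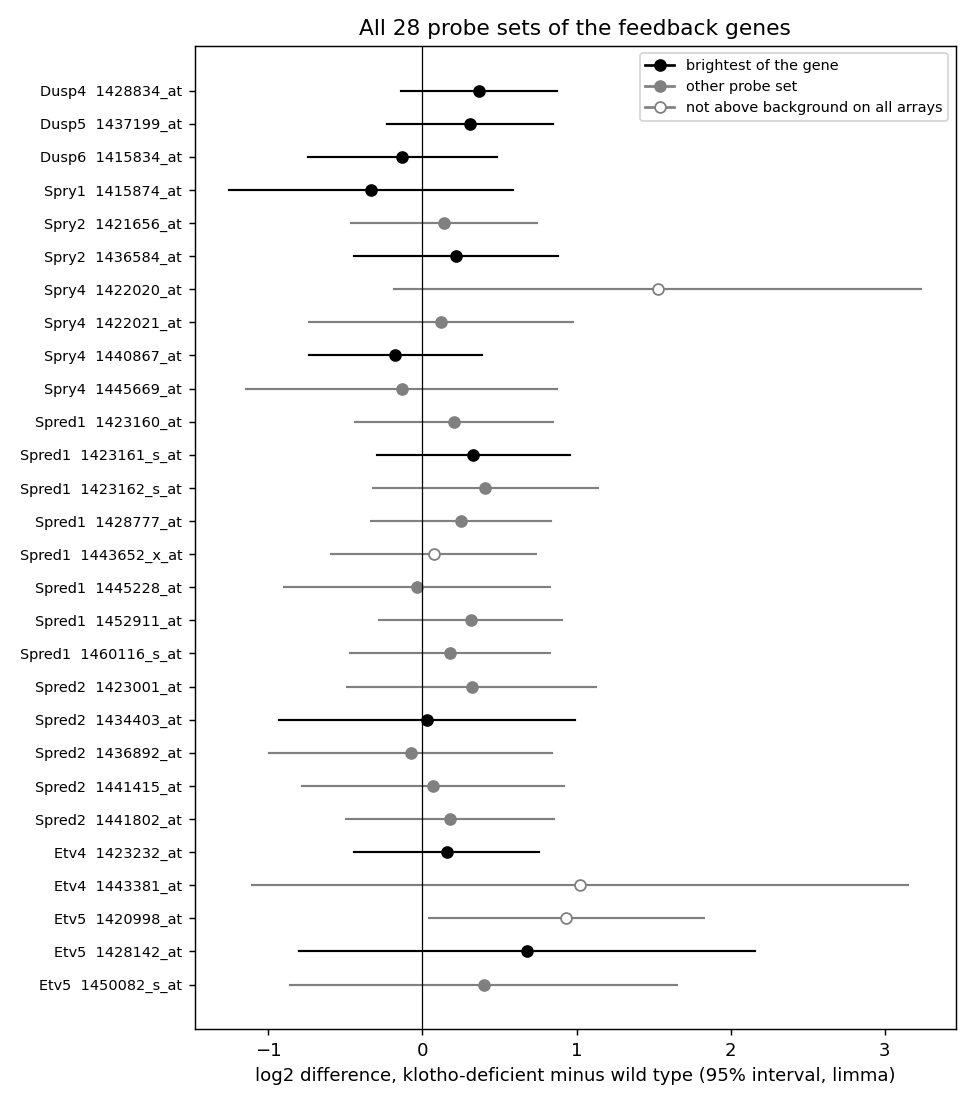
Log2 difference, klotho-deficient minus wild type, of all 28 probe sets with the 95% interval from limma over all probe sets. Black marks the brightest probe set of each gene, and open points were not above the highest Bacillus control on all 6 arrays. Of the 28 intervals, only that of Etv5 1420998_at lies off 0, and 22 of the estimates are positive and 6 negative (51.5% of all probe sets were positive).

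Dusp4, Dusp5 and Dusp6 spanned 1.22-fold to 1.59-fold among the klotho-deficient arrays and 1.23-fold to 1.40-fold among the wild-type arrays. Dusp4, a nuclear MAP kinase phosphatase (1428834_at), gave 510, 441.7 and 559.8 on the klotho-deficient arrays, against 435.1, 354.7 and 381.2 in wild type. It was the only member whose genotypes did not overlap, by the narrow gap between 441.7 and 435.1, while 13.5% of all genes did not overlap and 6.63% did so with klotho-deficient higher. The means were 503.8 ± 59.3 in klotho-deficient and 390.3 ± 41.0 in wild-type pools (SD, n = 3 each), a difference of 0.37 ± 0.19 (95% interval -0.089 to 0.82; adjusted p = 0.796 in limma). After quantile normalization or median centring they overlapped.

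Dusp5, a nuclear phosphatase specific for ERK (1437199_at), gave 840.2, 953.6 and 1023.9 on the klotho-deficient arrays, against 879.9, 772.5 and 630.7 in wild type. Replicates 2 and 3 were above every wild-type array and replicate 1 was inside their range. The difference was 0.31 ± 0.20 (adjusted p = 0.826 in limma). Dusp6, the cytoplasmic ERK phosphatase (1415834_at), gave 1910.6, 2277.1 and 3046.1 in klotho-deficient pools, against 2317, 2551.5 and 2936.8 in wild-type pools. Its klotho-deficient replicates 1 and 2 were below wild type and replicate 3 above, with a difference of -0.13 ± 0.24 (adjusted p = 0.933 in limma).

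When klotho-deficient replicate 3 was left out, 4 members had both remaining klotho-deficient arrays below all wild-type arrays, namely Dusp6, Spry1, Spry4 and Spred2 (14.7% of all genes did so with these 5 arrays). Dusp4 had them above (14.7% of all genes). Without that replicate 5 members had a positive and 5 a negative difference, and the median was 0.029. Without klotho-deficient replicate 1 the counts were 8 and 2 and the median was 0.30, with Dusp4, Dusp5, Spred1 and Etv5 above all wild-type arrays (11.9% of all genes). Leaving out klotho-deficient replicates 1, 2 and 3 in turn gave 4, 1 and 5 members whose genotypes did not overlap (21.8%, 24% and 29.4% of all genes), and leaving out wild-type replicates 1, 2 and 3 gave 2, 1 and 2 (21.2%, 21.6% and 22.7%). At an unadjusted p under 0.05 in limma there were 1, 0 and 1 members without each klotho-deficient replicate (5.99%, 6.11% and 8.07% of all genes), namely Etv5 and Spry1, and 0 without each wild-type replicate (5.2%, 5.32% and 5.73%). After adjustment, 0 members passed in each of these 6 fits.

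Other transcripts that ERK is known to induce were often highest on klotho-deficient replicate 3. Of 17 measured, 11 had their top signal there, against 20.6% of all genes. The mean log2 level of the 10 feedback genes, each centred on its mean over the 6 arrays, was 0.52 on that array, -0.23 and -0.072 on replicates 1 and 2 of that genotype and -0.11 to -0.026 in wild type. The same mean for the other ERK-responsive transcripts was 0.48 on that array, -0.16 and 0.0094 on replicates 1 and 2, and -0.22 to 0.040 in wild type. Among the 15 measured genes of the ERK cascade itself it was 0.12 on that array, against a range of -0.11 to 0.050 on the other 5, and 7 of the 15 had their highest signal there. These levels are a description, with no test.

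Markers of other cell types also differed on this array. The 10 cartilage markers had a mean centred log2 level of 1.08 on klotho-deficient replicate 3, 0.87 on replicate 2 and -0.72 on replicate 1, against -0.76 to -0.050 in wild type. Col2a1, the cartilage collagen, read 242.2, 2890.8 and 4225.9 in klotho-deficient pools, against 193.2, 417.6 and 296 in wild-type pools. The mean of the 10 mesothelial and epithelial markers was lowest on klotho-deficient replicate 3, at -0.55. The other klotho-deficient arrays were at -0.036 and -0.030 and wild-type arrays at -0.092 to 0.72. Of these 10 markers, 2 were higher and 8 lower in klotho-deficient pools. Krt19, an epithelial keratin, read 2349.4, 2278.2 and 1201.3 in klotho-deficient pools, against 2954.3, 2693.4 and 4739.8 in wild-type pools. Krt18, another keratin, went the other way, at 6283.4, 4873.1 and 5781.1 in klotho-deficient pools, against 3853, 3320.6 and 5980.2 in wild-type pools. Markers of smooth muscle were at -0.24 to 0.25 in klotho-deficient roots, with replicate 3 at -0.027, and -0.015 to 0.045 in wild-type roots.

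Endothelial markers were at -0.33 to -0.073 on the klotho-deficient arrays and -0.13 to 0.80 on the wild-type arrays, the highest being wild-type replicate 3. Cardiomyocyte markers were at -0.50 to 0.49 in klotho-deficient and -0.63 to 0.33 in wild-type pools, lowest on replicate 1 of both genotypes. Valve interstitial and fibroblast markers were within -0.0067 to 0.021 in klotho-deficient and -0.047 to 0.014 in wild-type pools, and macrophage markers within -0.25 to 0.19 in klotho-deficient and -0.20 to 0.18 in wild-type pools. No marker in these lists was at 0, but only 8 of the 10 cartilage markers had a mean signal above the highest Bacillus control. The part of these cell types in the feedback gene signals was not tested. With a covariate for the arrays without Y-linked signal, which sets klotho-deficient replicate 1 alone against wild type, the median of the 10 members was -0.22, with Etv5 at -0.50 and Spry1 at -0.51, and 0 passed in limma.

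**Figure D3:**
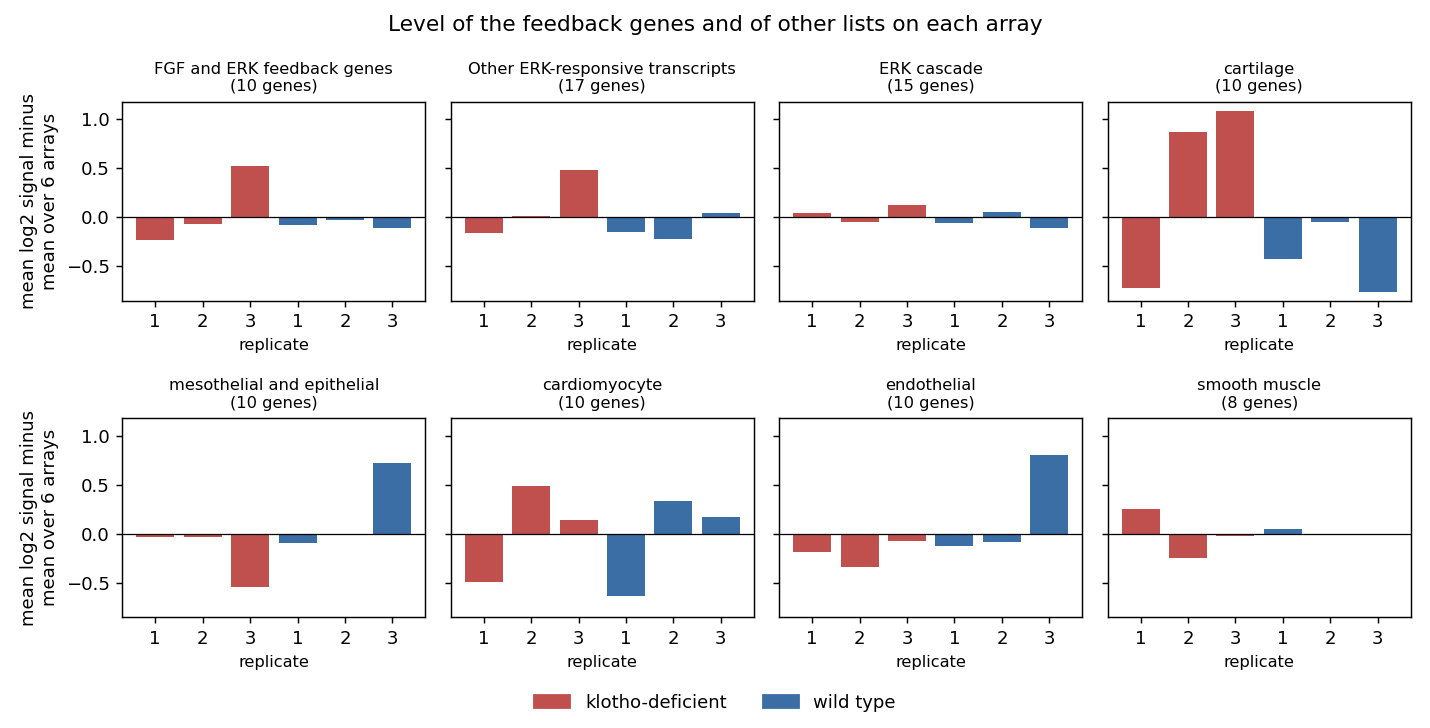
Mean log2 signal of each gene list on each array, every gene centred on its own mean over the 6 arrays, for klotho-deficient (left 3 bars) and wild-type (right 3 bars) pools. The feedback genes and the other ERK-responsive transcripts both stand highest on klotho-deficient replicate 3 (0.52 and 0.48), where cartilage markers are high (1.08) and mesothelial and epithelial markers low (-0.55). Cartilage markers are also high on klotho-deficient replicate 2 (0.87), where the feedback genes are at -0.072 and the other ERK-responsive transcripts at 0.0094.

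The wider pathway gave no call in either direction. Across 8 lists of ligands, receptors, cascade components, feedback regulators and response genes, limma called 0 genes with adjustment over all genes. The genes named from these lists had the smallest p, a choice that favours genotypes that do not overlap. Over all genes, 13.5% did not overlap. At an unadjusted p under 0.05 in limma there were 3 of 17 PDGF, VEGF and HGF ligands and receptors and 2 of 17 other ERK-responsive transcripts. Cascade genes gave 1 of 15, other feedback regulators 1 of 18 and FGF ligands 1 of 22. The other 3 lists gave 0, and the share of all genes was 6.41%. The feedback regulator was Socs1, above the highest Bacillus control on 1 array, and the FGF ligand was Fgf23, above it on 0 arrays. Both were named after their values were seen. FGF ligands had a median difference of -0.091, with 9 of 22 measured genes higher and 13 lower. Of the 22, 14 had a mean signal above the highest Bacillus control, and the median of these was -0.23. Fgf9, a mesothelial and epithelial ligand in several organs, read 548.6, 313.4 and 600.6 on the klotho-deficient arrays, against 698, 907.8 and 625.7 in wild type (-0.65 ± 0.31). In this brightest probe set the klotho-deficient values were all below the wild-type ones, as they were for Fgf11, an intracellular FGF homologue (-0.51 ± 0.23). The adjusted p was 0.793 for Fgf9 and 0.770 for Fgf11 in limma. Another probe set of each gene had overlapping genotypes, with differences of -0.37 for Fgf9 and -0.16 for Fgf11. Fgf22, an FGF of the nervous system, gave -0.61 ± 0.37 with overlapping genotypes.

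Of 7 FGF receptors and co-receptors 2 were higher and 5 lower. Klb, among the lower, and Fgfr4, among the higher, had a mean signal below the highest Bacillus control. Fgfr1, the receptor of most mesenchymal cells, read 4141.6, 4052.9 and 7050.8 on the klotho-deficient arrays, against 3448.5, 3133.5 and 3272.6 in wild type. All klotho-deficient arrays were above all wild-type arrays, and replicate 3 was again the highest (0.58 ± 0.26, adjusted p = 0.770 in limma). Its other probe sets gave 0.33 and 0.31, the latter with overlapping genotypes. Fgfr2 was also highest on replicate 3, at 4663.4, 5617.4 and 8034.3 in klotho-deficient pools, against 6328.9, 7571.7 and 6392.7 in wild-type pools (-0.18 ± 0.25). Fgfr3 gave -0.36 ± 0.22. For both receptors another probe set above the highest Bacillus control on all 6 arrays had the opposite sign, 0.19 for each.

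Of the 23 cascade genes listed, 15 were measured, 8 higher and 7 lower, with a median of 0.0087. Sos2, an exchange factor that loads Ras with GTP, read 3243.9, 3072 and 3764.6 in klotho-deficient pools, against 2495.8, 2605.7 and 1749.5 in wild-type pools (0.57 ± 0.22). Rras2, a Ras-related GTPase, read 4145.3, 3091.1 and 3425.3 in klotho-deficient pools, against 4861.4, 4158.9 and 6288.9 in wild-type pools (-0.51 ± 0.23). Neither overlapped between genotypes (13.5% of all genes did not), and each had an adjusted p of 0.770 in limma. Map2k2, the MEK2 kinase, gave 0.60 ± 0.30, but 0.014 in its other probe set.

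Other feedback regulators, 18 measured, had a median of 0.11, with 11 higher and 7 lower. Of the 18, 15 had a mean signal above the highest Bacillus control, and the median of these was 0.0074. Socs1, Spred3 and Spry3, all among the higher, had a mean below that control. Il17rd, the FGF receptor inhibitor also called Sef, read 2146.9, 1526.5 and 3173.2 on the klotho-deficient arrays, against 3252.1, 2798.7 and 3255.8 in wild type (-0.50 ± 0.30, adjusted p = 0.813 in limma). Its other probe set had the opposite sign (0.15), at 249, 371.6 and 426.2 in klotho-deficient pools, against 275.7, 291.9 and 355.5 in wild-type pools. Klotho-deficient replicate 3 was the highest of its genotype in both probe sets, and above all wild-type arrays in the second. Flrt3, a membrane protein that binds FGF receptors, gave 0.55 ± 0.24, and Dok2, an adaptor of blood cells, gave -0.55 ± 0.30. Flrt3 is not an inhibitor of these receptors, nor are Flrt1 and Flrt2, which were also higher (0.21 and 0.030). Of these 18 genes, 3 had their highest signal on klotho-deficient replicate 3, against 20.6% of all genes.

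Other MAP kinase phosphatases, 7 measured, had a median of 0.096, and 1 of 7 was highest on klotho-deficient replicate 3. Dusp1, the stress-induced phosphatase, read 15615.2, 9387.7 and 13692.5 in klotho-deficient pools, against 10282.5, 7637.8 and 15339 in wild-type pools (0.25 ± 0.33). Dusp10 gave 0.30 ± 0.26 and Dusp2 gave 0.23 ± 0.30, all with overlapping genotypes.

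The other ERK-responsive transcripts had a median of 0.26, with 13 of 17 higher and 4 lower. Ccnd1, cyclin D1, was among the 4 lower, at 3185.6, 3325.4 and 4323.7 on the klotho-deficient arrays and 5338.9, 4803.8 and 9105.7 on the wild-type arrays. The genotypes did not overlap for its brightest probe set (-0.78 ± 0.30, adjusted p = 0.763 in limma), and its other probe sets gave -0.56 and -0.44. Myc read 913.4, 1067.3 and 1290 in klotho-deficient pools, against 632.4, 768.1 and 872.5 in wild-type pools (0.52 ± 0.22), and Junb, an AP-1 subunit, gave 0.58 ± 0.22 at signals of 190.1 to 270.1 in klotho-deficient pools and 138.4 to 180 in wild-type pools. Neither Myc nor Junb overlapped between genotypes (13.5% of all genes did not), and their adjusted p was 0.770 and 0.763 in limma.

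Ligands and receptors of other kinases that feed into ERK included 17 genes for PDGF, VEGF and HGF, with a median of -0.12, 7 higher and 10 lower. Pdgfa read 2053.6, 1525.1 and 1808.4 in klotho-deficient pools, against 2822.1, 3159.8 and 2855 in wild-type pools (-0.72 ± 0.19, adjusted p = 0.670 in limma). Hgf, the ligand of the Met receptor, read 810.9, 2093.1 and 1068.1 in klotho-deficient pools, against 662.3, 530.3 and 291.8 in wild-type pools (1.38 ± 0.46, adjusted p = 0.731 in limma), with the highest value on replicate 2. Met itself read 1315.3, 1189.6 and 1222.8 in klotho-deficient pools, against 1796.2, 1497.1 and 1822.2 in wild-type pools (-0.45 ± 0.17, adjusted p = 0.763 in limma). None of these 3 overlapped between genotypes, and none passed in limma over all genes. The EGF family, with 12 measured genes, had a median of 0.059, with Ereg at 0.61 ± 0.32, Nrg2 at 0.92 ± 0.64 and Egfr at 0.33 ± 0.25, with 1 of the other Egfr probe sets at -0.079.

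**Figure D4:**
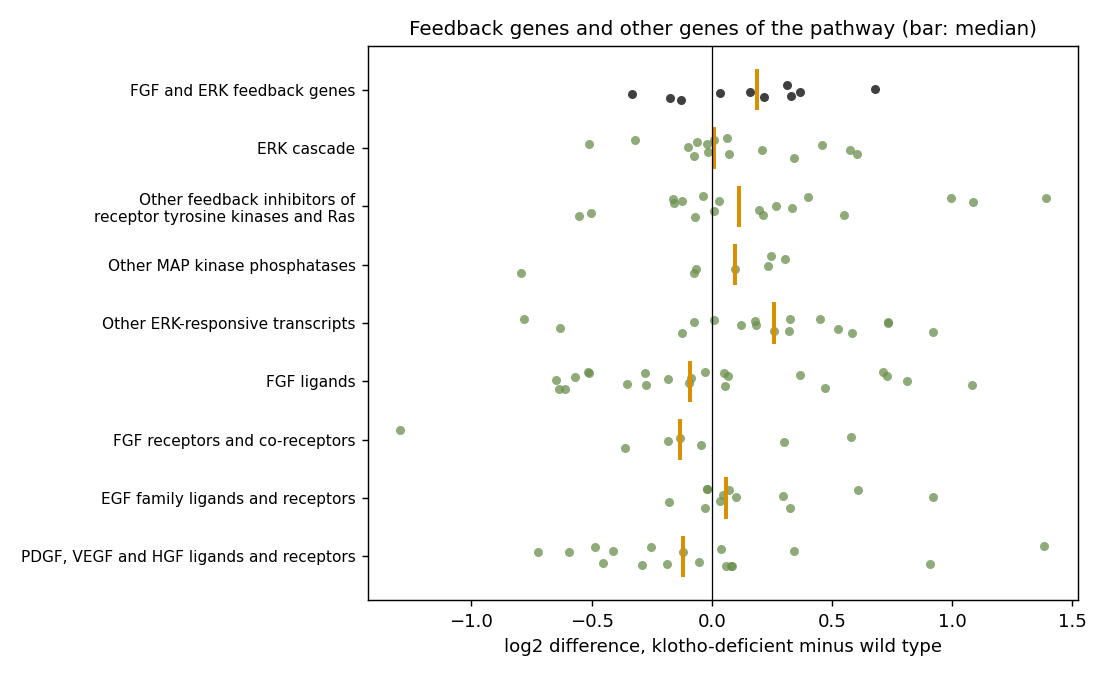
Log2 difference, klotho-deficient minus wild type, of each feedback gene (top row) and of each measured gene of 8 other lists of the pathway, with a bar at the median. Medians run from -0.13 for FGF receptors and co-receptors to 0.26 for the other ERK-responsive transcripts, with the feedback genes at 0.19. Genes with a mean below the highest Bacillus control are included. The list labelled other feedback inhibitors also holds Flrt1, Flrt2 and Flrt3, which are not inhibitors.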

How the data were processed

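The authors deposited linear intensities for 45101 probe sets on each array. The submitters' processing notes name RMA without a version, but the lowest value was 0.1 and a mean trimmed by 2% at both ends came to 1500.01 on every array, so whether RMA gave them is not known here. Promoter coordinates are those of the RefSeq table (GRCm38.p6). Values were log2-transformed with no offset and no further normalization. Of 45037 probe sets other than controls, 34945 had 1 gene symbol, 932 several and 9160 none. Each gene was represented by its probe set of highest mean log2 signal. The test was limma's moderated test (version 3.58.1, R 4.3.3), two-sided and adjusted by Benjamini-Hochberg, over 18193 genes and, for further probe sets, over 45037 probe sets. The spread was estimated from 4 residual and 2.1 prior degrees of freedom. Genes named from the other lists were the 3 of smallest p per pathway list, and up to 2 per marker list, above the highest of 27 Bacillus controls. The members and lists were chosen with earlier results of these data known. The fit was checked on simulated data. The number of arrays limits the precision. Figures used matplotlib 3.10.9 in Python 3.11.15.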

Additional observations from a re-analysis of the deposited data

How the results depend on the processing

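Of 160 member differences recomputed under 16 other settings, 148 kept their direction and 12 reversed, and 0 passed, the smallest adjusted p being 0.561. With probe sets averaged, Spry4 was 0.33 and Etv4 0.59. Each average takes in a dim probe set without a stable fold, 1422020_at for Spry4 (1.53) and 1443381_at for Etv4 (1.02). Spred2 was -0.018 after quantile normalization and -0.21 with array weights, under which Etv5 was 0.052 and the members' median 0.075. With a covariate for the 2 arrays without Y-linked signal, which leaves klotho-deficient replicate 1 against wild type, the members' median was -0.22, with Spry2 at -0.055, Spred1 at -0.057, Spred2 at -0.40 and Etv5 at -0.50. Leaving out each array in turn gave -0.31 to 0.024 for Dusp6, -0.035 to 0.36 for Spry2 and -0.39 to 0.25 for Spred2, 0 to 1 members at an unadjusted p under 0.05 and 1 to 5 whose genotypes did not overlap. Without klotho-deficient replicate 1 that last count was 4 (21.8% of all genes), and without klotho-deficient replicate 3 it was 5 (29.4%). It was 2 without wild-type replicate 1 (21.2%) and 2 without wild-type replicate 3 (22.7%). It was 0 after quantile normalization and 0 after median centring. The causes were not tested. Across all genes, limma called 1 gene without dim genes, with an offset of 100, with array weights or at a threshold of 0.1, and 2 with a trended and robust prior; leaving out single arrays gave 0 to 1. These were the clock gene Dbp in each of those settings, Sphk2 in addition under the trended prior, and the Y-linked Eif2s3y without klotho-deficient replicate 1, named after their values were seen. In alternatives added after the data were seen, klotho-deficient replicate 3 was the highest array for 7 members after quantile normalization (26.1% of all genes). The count was 9 after median centring (35%), 9 with the offset (20.6%) and 8 with probe sets averaged (17.6%). Replicate numbers showed no pairing across all genes. Deviations of same-numbered arrays correlated at 0.025, -0.019 and 0.075, and 2 of 6 arrays correlated best with their own number. These values do not exclude a pairing, and cardiomyocyte markers were lowest on replicate 1 of both genotypes. A replicate block left the median at 0.19 and the count of called genes at 0. With 3 pools a genotype, the 95% intervals of all 10 members include 0 and do not show that the genotypes are alike, and dim probe sets have no stable fold.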
